A study of Mus musculus with 8 samples.

Results

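Egr1, Egr2, Egr3, Ier2, Ier3, Btg2, Nr4a1, Klf2, Klf4 and Klf6 are immediate early genes outside the AP-1 family, and they were chosen by gene symbol from the deposited gene table. All 10 symbols were found among its 26848 genes, each on 1 row, and all 10 had enough counts to be tested. The libraries came from RAW264.7, an established mouse macrophage line, grown on nano/microstructured polyetheretherketone (PEEK, an implant plastic; 4 libraries) or on smooth PEEK (4 libraries). No other agent, allele or stimulus is named for either group, and the labels used here give no time in culture. The labels name 3 of the 4 libraries per group as biological replicates and give the other one no such name, and they do not say whether each came from its own culture or day. A p-value here therefore speaks of library-to-library spread only, some or all of which could be technical. The libraries are called structured 1 to 4 and smooth 1 to 4.

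Immediate early genes are transcribed within minutes of a signal, without new protein synthesis, and their mRNAs are usually short-lived. In macrophages they respond to growth factors, adhesion, serum and microbial products, largely through ERK kinase, serum response factor (SRF), ternary complex factors, CREB and MEF2. EGR and KLF proteins are zinc-finger transcription factors, Nr4a1 is an orphan nuclear receptor, Btg2 recruits the CCR4-NOT deadenylase to mRNAs, and Ier2 and Ier3 encode small proteins with no DNA-binding zinc finger.

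Promoter sequences from RefSeq (build GRCm38.p6) were searched for 7 of the 10 members, namely Egr2, Ier3, Btg2, Nr4a1, Klf2, Klf4 and Klf6. Egr1, Egr3 and Ier2 were not searched, so the motif counts leave them out. Windows of 250 bases before to 50 after the annotated start were searched on both strands for the CArG box bound by SRF, the cyclic AMP response element TGACGTCA bound by CREB, the EGR site GCGNGGGCG and the GC box GGGCGG, which can overlap an EGR site. Nr4a1 also held an EGR site but is not printed. The 4 promoters below each carry some of the first 3 motifs, and none carries all 3. Each is printed for its 250 bases before the start, on the strand of the gene, with the CArG box, the cyclic AMP response element and EGR sites of either strand in capitals.
Egr2 (chr10:67537619-67537868, plus strand): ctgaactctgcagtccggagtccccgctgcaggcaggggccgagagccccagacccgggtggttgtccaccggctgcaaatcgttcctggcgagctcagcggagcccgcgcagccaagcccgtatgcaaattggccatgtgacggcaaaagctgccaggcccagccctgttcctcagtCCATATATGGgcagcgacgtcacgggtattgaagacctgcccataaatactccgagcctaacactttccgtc
Btg2 (chr1:134079156-134079405, minus strand): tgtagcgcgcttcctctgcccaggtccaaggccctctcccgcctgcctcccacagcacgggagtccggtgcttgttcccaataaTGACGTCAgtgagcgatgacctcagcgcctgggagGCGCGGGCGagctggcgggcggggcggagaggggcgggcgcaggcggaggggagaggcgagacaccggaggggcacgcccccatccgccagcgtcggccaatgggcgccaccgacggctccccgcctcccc
Klf2 (chr8:72318812-72319061, plus strand): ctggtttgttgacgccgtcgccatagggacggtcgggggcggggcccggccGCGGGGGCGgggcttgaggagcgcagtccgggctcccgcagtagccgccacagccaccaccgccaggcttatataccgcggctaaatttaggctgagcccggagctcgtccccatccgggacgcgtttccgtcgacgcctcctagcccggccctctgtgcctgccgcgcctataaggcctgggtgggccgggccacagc
Klf4 (chr4:55532476-55532725, minus strand): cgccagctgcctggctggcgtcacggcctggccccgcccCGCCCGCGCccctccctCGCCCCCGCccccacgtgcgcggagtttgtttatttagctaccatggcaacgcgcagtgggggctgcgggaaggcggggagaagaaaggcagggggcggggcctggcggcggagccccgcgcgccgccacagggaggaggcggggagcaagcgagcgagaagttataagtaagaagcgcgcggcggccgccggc

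Egr2 had 5 such windows, and the one printed held the CArG box CCATATATGG from base -72, counted from the start. Btg2 held TGACGTCA from base -166 and the EGR site GCGCGGGCG from base -131. Klf2 held the EGR site GCGGGGGCG from base -199. Klf4 held EGR sites on the opposite strand from bases -211 and -194. The CArG box was found in 1 of the 7 members against 1.63% of all 32851 promoters of the table, the cyclic AMP response element in 1 member against 1.79%, the EGR site in 4 members (Btg2, Klf2, Klf4 and Nr4a1) against 5.55%, and the GC box in 7 members against 35.7%. A member counted if any of its windows matched, and Egr2 had 5, while the percentages are shares of single promoters. The 2 sides are therefore not like for like. These matches describe letters in a window and are not measured binding sites.

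None of the 10 members passed the test between structured and smooth PEEK at an adjusted p of 0.05. In edgeR's quasi-likelihood test 0 members were called, against 3.75% of the 16006 genes tested that were called in either direction (2.75% lower and 1.01% higher on structured PEEK). At an unadjusted p under 0.05 there were 4 members, Egr1, Ier3, Klf4 and Klf6, all with lower means on structured PEEK, and 18.7% of all genes reached that level. DESeq2, which gave 7 of the members an adjusted p, and limma voom also called 0, with 4 members each at an unadjusted p under 0.05. Limma on log2(FPKM + 0.5) held 7 members, called 0, and had 2 at that level. The structured and smooth libraries overlapped in CPM (counts per 1000000) for every member, so 0 of 10 were fully separated, against 12.2% of all genes. The fold change was below 0 for 7 members and above 0 for 3, with a median log2 fold change of -0.05, beside 48.8% of all genes below 0 and a median of 0.01. In these bulk libraries, fewer cells expressing a gene and less of its RNA per cell cannot be told apart.

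**Figure D1:**
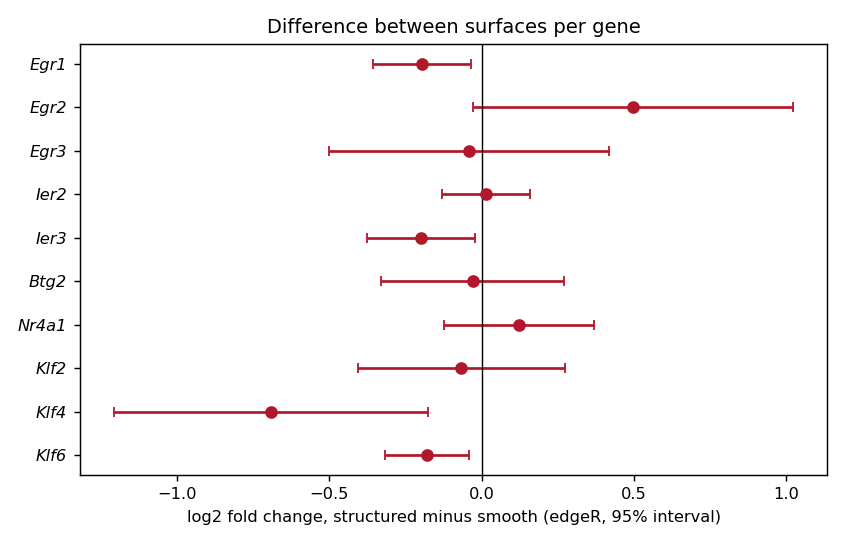
Log2 fold change of each early-response gene, structured minus smooth PEEK (points, edgeR), with its 95% confidence interval (bars) and a vertical line at 0. The intervals of Egr1, Ier3, Klf4 and Klf6 lie below 0 and the other 6 cross it, before adjustment over all genes.

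The plot of fold changes with their intervals shows how closely each gene was bounded. The interval was narrow for Klf6, at -0.32 to -0.04, and wide for Klf4, at -1.21 to -0.18. The 3 members with the fewest counts, Egr2, Egr3 and Klf4, had the largest standard errors. The deposited counts rise mostly in steps of about 4, so Egr2 rested on about 19 to 37.5 fragments per library (76 to 150 count units), Klf4 on at most 50.5 (80 to 202 units) and Egr3 on at most 51 (109 to 204 units). Counting error alone then gives a coefficient of variation (CV) of 19.6% for Egr2, 18.1% for Klf4 and 15.1% for Egr3, but 2.64% for Ier3, 3.48% for Klf6 and 3.66% for Ier2. These figures cover counting error alone.

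Per unit of transcript length, the members spanned a wide range of levels. Ier3 was highest, with a median of 68.8 FPKM (fragments per kilobase and 1000000 fragments) over the 8 libraries and a range of 56.5 to 87.6, above 97.4% of the genes in the table. Ier2 followed with a median of 26.8 FPKM, then Klf6 with 10.6, Egr1 with 5.43, Btg2 with 4.14, Klf2 with 3.51 and Nr4a1 with 1.76. Egr3 at 0.586, Klf4 at 0.509 and Egr2 at 0.379 FPKM were the lowest. Neighbours in this order overlapped between Egr1 and Btg2, Btg2 and Klf2, Egr3 and Klf4, and Klf4 and Egr2. The other 5 pairs of neighbours did not overlap in any library.

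Egr1 is the best known EGR factor and is induced by ERK and SRF in most cells. It lies on chromosome 18 (34859823 to 34864984, plus strand, ENSMUSG00000038418). It had 26.8, 24.2, 23.2 and 22 CPM in structured 1 to 4, against 26.5, 28.4, 29.9 and 25.3 CPM in smooth 1 to 4. The groups overlapped through structured 1 alone, since structured 2, 3 and 4 lay below all 4 smooth libraries. The means were 24.0 ± 2.06 CPM on structured and 27.5 ± 2.02 CPM on smooth PEEK (SD, n = 4 each), a log2 fold change of -0.20 ± 0.074 (SE), with an unadjusted p of 0.0212 and an edgeR adjusted p of 0.17. The log2 fold change of Egr1 was -0.10, with an adjusted p of 0.557, once trends with GC content and gene length were removed, and its adjusted p ranged from 0.104 to 0.557 over 22 alternatives.

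Egr2 (Krox20) takes part in macrophage differentiation and alternative activation. Its gene lies on chromosome 10 (67535475 to 67542188, plus strand, ENSMUSG00000037868), and the CArG box shown above lies in the windows before 3 of its 5 annotated starts, while another, CCTTTTTTGG, lies before 1 of the others. Egr2 had 1.64, 1.93, 1.24 and 2.33 CPM in structured 1 to 4, against 1.22, 1.07, 1.21 and 1.55 CPM in smooth 1 to 4. Structured 1, 2 and 4 lay above every smooth library, and structured 3 lay among them. Egr2 averaged 1.79 ± 0.461 CPM on structured and 1.26 ± 0.204 CPM on smooth PEEK (SD, n = 4 each). Its log2 fold change was 0.50 ± 0.24 (SE), with a 95% interval of -0.03 to 1.02 and an adjusted p of 0.298, and the highest point estimate of the 10 members.

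Egr3, a close paralog of Egr1 and Egr2, lies on chromosome 14 (70077203 to 70082614, plus strand, ENSMUSG00000033730). It had 2.84, 2.91, 2.69 and 1.69 CPM in structured 1 to 4, against 2.25, 2.88, 3.09 and 2.204 CPM in smooth 1 to 4. Structured 4 was the lowest of all 8 libraries, and the other 3 structured libraries lay within the smooth range. Egr3 had a log2 fold change of -0.04 ± 0.21 (SE), with an interval of -0.50 to 0.42 and an adjusted p of 0.951. Leaving out 1 library turned its sign, to 0.11 without structured 4, 0.05 without smooth 3 and 0.01 without smooth 2, with adjusted p-values of at least 0.85.

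The ratio of Egr2 to Egr1 within a library was examined after their values had been seen, because their fold changes had opposite signs. Egr2 stood at 6.13, 7.99, 5.34 and 10.6% of the Egr1 CPM in structured 1 to 4, against 4.59, 3.78, 4.05 and 6.13% in smooth 1 to 4. Structured 1, 2 and 4 were above every smooth library, structured 1 by little (6.132% against 6.127% in smooth 4), and structured 3 was below smooth 4 alone. The mean log2 ratio was 0.67 higher on structured PEEK, which is given as a description with no test. It follows from the fold changes of both genes and adds no separate result. Egr2 rested on about 19 to 37.5 fragments per library, so small differences between these ratios lie within counting error.

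The 2 members with the smallest p were KLF genes. Klf4 restrains proliferation and takes part in monocyte differentiation, and lies on chromosome 4 (55527143 to 55532466, minus strand, ENSMUSG00000003032). It had 1.24, 1.18, 1.76 and 1.24 CPM in structured 1 to 4, against 1.55, 2.85, 2.05 and 2.31 CPM in smooth 1 to 4. Structured 1, 2 and 4 lay below every smooth library, and structured 3 was above smooth 1. Klf4 averaged 1.36 ± 0.272 CPM on structured and 2.19 ± 0.545 CPM on smooth PEEK (SD, n = 4 each), which is 0.619-fold with a 95% interval of 0.433 to 0.885. The log2 fold change of -0.69 ± 0.24 (SE) had an unadjusted p of 0.013 and an edgeR adjusted p of 0.131, so it did not pass. On the log2(FPKM + 0.5) scale with no filter on low values it was -0.35, since the added constant is about as large as Klf4 itself.

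Klf6, a widely expressed KLF that takes part in inflammatory gene activation in macrophages, lies on chromosome 13 (5861482 to 5870394, plus strand, ENSMUSG00000000078). It had 41.4, 46.4, 49.8 and 44.3 CPM in structured 1 to 4, against 48.7, 50.8, 55.2 and 51.4 CPM in smooth 1 to 4. Structured 1, 2 and 4 were below every smooth library, and structured 3 was above smooth 1 alone. The means were 45.5 ± 3.56 CPM on structured and 51.5 ± 2.70 CPM on smooth PEEK (SD, n = 4 each). The log2 fold change of -0.18 ± 0.062 (SE) had an unadjusted p of 0.0145 and an edgeR adjusted p of 0.139, with a range of 0.0585 to 0.315 over 22 alternative settings.

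Klf2 keeps monocytes and endothelial cells quiescent and lies on chromosome 8 (72319033 to 72321656, plus strand, ENSMUSG00000055148). It had 7.77, 7.53, 6.37 and 6.36 CPM in structured 1 to 4, against 8.23, 9.04, 6.13 and 5.95 CPM in smooth 1 to 4. The structured values fell wholly inside the smooth range, with 2 libraries high and 2 low in each group. The smooth libraries varied more, with a CV of 21.0% against 10.7% in the structured libraries and 9.04% from counting alone. The log2 fold change was -0.07 ± 0.15 (SE), with an adjusted p of 0.885, and it was 0.05 without smooth 2.

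**Figure D2:**
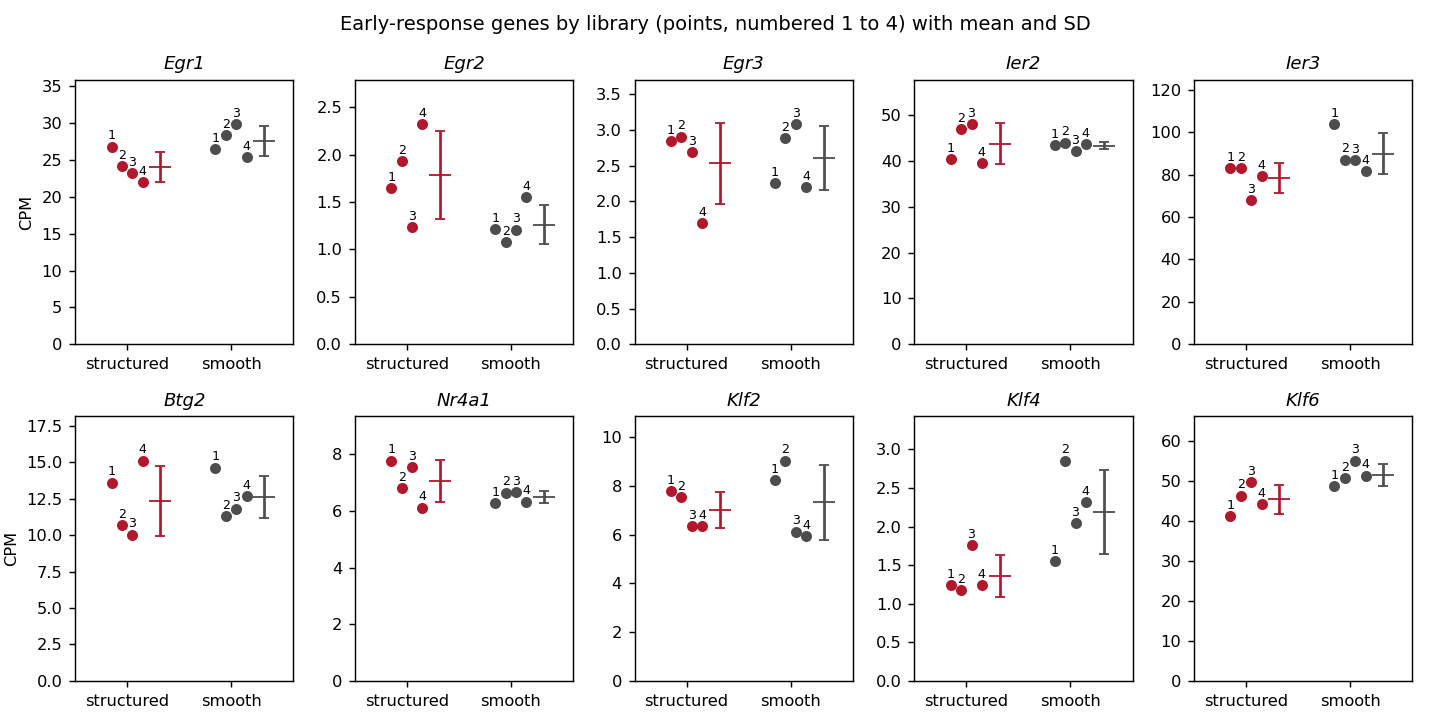
CPM of each early-response gene in every library (points numbered 1 to 4), with the group mean and SD beside them, structured PEEK in red and smooth PEEK in grey, on axes that start at 0. For Egr1, Klf4 and Klf6, 3 of the 4 structured libraries lie below every smooth library, and for Egr2 and Nr4a1, 3 lie above. For Nr4a1, structured 4 lies below every smooth library.

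The plot of CPM by library shows the same overlap for the remaining members. Ier3, an apoptosis and NF-kB regulator also called Iex1, lies on chromosome 17 (35821684 to 35822923, plus strand, ENSMUSG00000003541). It had 82.9, 83.2, 67.9 and 79.2 CPM in structured 1 to 4, against 104, 87.0, 86.8 and 81.8 CPM in smooth 1 to 4. Smooth 1 was the highest library and structured 3 the lowest, and structured 1 and 2 exceeded smooth 4. The means were 78.3 ± 7.17 CPM on structured and 89.9 ± 9.69 CPM on smooth PEEK (SD, n = 4 each), a log2 fold change of -0.20 ± 0.081 (SE) with an unadjusted p of 0.0313 and an edgeR adjusted p of 0.21. Without smooth 1 the log2 fold change of Ier3 was -0.12, with an adjusted p of 0.399, in a range of 0.0687 to 0.499 over 22 alternatives.

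Ier2, a nuclear protein induced by growth factors, lies on chromosome 8 (84661331 to 84662854, minus strand, ENSMUSG00000053560). It had 40.5, 47.1, 48.1 and 39.6 CPM in structured 1 to 4, against 43.6, 44.0, 42.2 and 43.7 CPM in smooth 1 to 4. The structured libraries fell on both sides of the smooth ones, with 2 above all of them and 2 below. Their CV was 10.03% against 1.89% in the smooth libraries and 3.66% from counting alone, and the difference in spread was not tested. The smooth CV lay below the counting figure, as for Nr4a1 (3.20% against 9.30%) and Egr2 (16.1% against 19.6%). These counting figures rest on about 4 count units per fragment. The log2 fold change was 0.01 ± 0.066 (SE), with an interval of -0.13 to 0.16 and an adjusted p of 0.943, and its sign turned without structured 2 (-0.02) or structured 3 (-0.03).

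Nr4a1 (Nur77) limits inflammatory gene expression in macrophages and is needed for patrolling monocytes. It lies on chromosome 15 (101254269 to 101274795, plus strand, ENSMUSG00000023034). It had 7.77, 6.79, 7.53 and 6.11 CPM in structured 1 to 4, against 6.28, 6.64, 6.67 and 6.32 CPM in smooth 1 to 4. Structured 1, 2 and 3 were above every smooth library and structured 4 was below them all. Nr4a1 had a log2 fold change of 0.12 ± 0.11 (SE), with an interval of -0.12 to 0.37 and an adjusted p of 0.643. It was 0.07 without structured 1 and 0.19 without structured 4.

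Btg2 slows the cell cycle and is a target of p53, and lies on chromosome 1 (134075170 to 134079120, minus strand, ENSMUSG00000020423). It had 13.6, 10.7, 10.03 and 15.1 CPM in structured 1 to 4, against 14.6, 11.3, 11.8 and 12.7 CPM in smooth 1 to 4. Structured 4 and smooth 1 were the highest libraries, 1 in each group. Btg2 had a log2 fold change of -0.03 ± 0.14 (SE), with an interval of -0.33 to 0.27 and an adjusted p of 0.946. Its sign turned without smooth 1 (0.05), structured 2 (0.03) or structured 3 (0.06).

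Structured 4 and smooth 1 were the libraries with the most hepatocyte transcripts. Structured 3 came next, and was the lowest library for Btg2. The 10 hepatocyte markers summed to 115, 111, 211 and 377 CPM in structured 1 to 4, against 262, 84.2, 72.1 and 57.5 CPM in smooth 1 to 4. By edgeR 0 of the 10 were called and 2 were at an unadjusted p under 0.05, and DESeq2 and limma called 0. The groups overlapped through smooth 1 alone, with structured 4 and smooth 1 highest. Smooth 2 to 4 lay below all 4 structured libraries, so leaving out structured 4 and smooth 1 separated the groups fully in these sums. Without both libraries, the log2 fold change was -0.06 for Btg2, 0.05 for Egr3, 0.04 for Klf2, 0.06 for Ier2, -0.13 for Ier3 and 0.33 for Egr2, the members it moved by over 1.5 times or turned. In that fit 0 members were called and the lowest adjusted p was 0.171, for Klf4. The 13 neutrophil markers summed to 70.1, 110, 108 and 110 CPM in structured 1 to 4, against 59.4, 65.3, 69.8 and 68.0 CPM in smooth 1 to 4. Mmp9 made up most of these sums in the smooth libraries, and the 12 markers other than Mmp9 summed to 17.5, 56.2, 55.9 and 60.6 CPM in structured 1 to 4, against 6.07, 4.95, 5.85 and 5.09 CPM in smooth 1 to 4. All 4 structured libraries lay above the smooth ones, with structured 1 the lowest of them. Of the 7 neutrophil markers tested, 5 were higher and 0 lower on structured PEEK by edgeR, and 1 was higher by limma voom. DESeq2 gave 5 of them an adjusted p, with 3 higher and 1 (Mmp9) lower. Elane and Mpo were at most 0.0590 CPM in every library. The 10 skeletal muscle markers summed to 21.6, 16.0, 15.2 and 16.1 CPM in structured 1 to 4. In smooth 1 to 4 they summed to 60.0, 25.8, 18.6 and 37.3 CPM, with smooth 1 the highest of the 8 libraries. Tnni2 made up most of the structured sums, at 13.7, 12.9, 13.3 and 14.6 CPM in structured 1 to 4. It had 15.7, 13.1, 9.72 and 12.4 CPM in smooth 1 to 4, so it overlapped between the groups. By edgeR and limma voom 2 of the 10 markers were lower, and 8 were at an unadjusted p under 0.05 in edgeR. DESeq2 called 0 but gave only 2 of the 10 an adjusted p, with 6 at an unadjusted p under 0.05. T and B cell markers summed to 0.698 to 1.69 CPM on structured and 0.444 to 1.10 CPM on smooth PEEK, and fibroblast markers to 0.682 to 3.52 CPM on structured and 1.77 to 2.65 CPM on smooth PEEK. No marker with a row in the deposited gene table was at 0 in all libraries. Ly6g (neutrophil) and Cd3e (T cell) were also listed but had no row there, so they are not covered. The macrophage markers summed to 6467 to 6615 CPM on structured and 6124 to 6555 CPM on smooth PEEK. By edgeR 0 of these 10 were called and 3 were at an unadjusted p under 0.05, and DESeq2 called 1 and limma voom 0. The part of these transcripts in the values of the members was not tested.

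**Figure D3:**
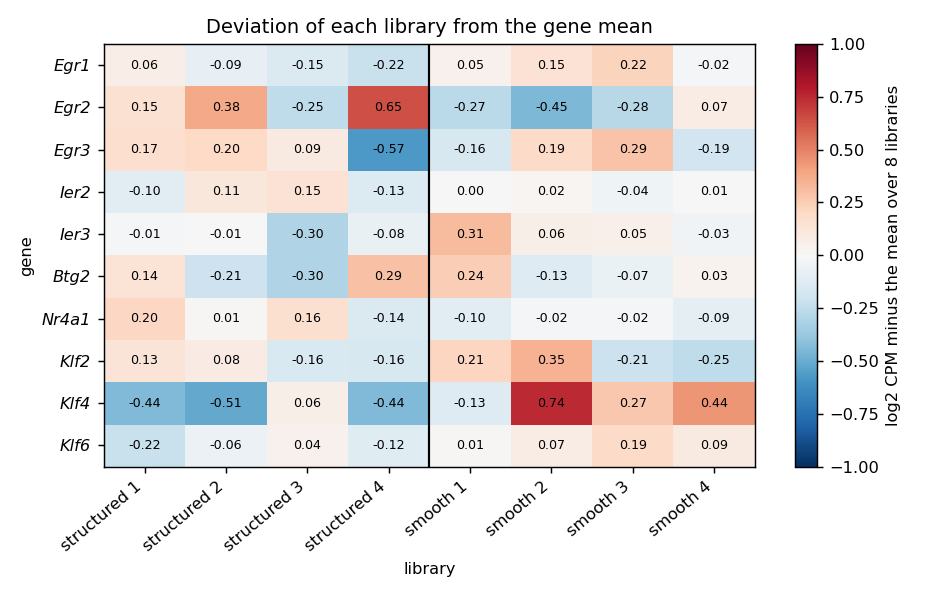
Difference of each library's log2 CPM from the mean over the 8 libraries for each gene (colour and printed number), structured libraries left of the line and smooth libraries right of it. Structured 4 is low for Egr3 (-0.57) and high for Egr2 (0.65), and smooth 2 is high for Klf4 (0.74).

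The map of library deviations shows that no single library was high or low for all members. Structured 4 was the lowest library for 4 members (Egr1, Egr3, Ier2 and Nr4a1) and the highest for 2 (Egr2 and Btg2). Smooth 3 was the highest for 3 members (Egr1, Egr3 and Klf6) and the lowest for 0. Smooth 2 was the highest for Klf2 and Klf4 and the lowest for Egr2. In structured 4 the EGR genes lay apart, with the highest Egr2 and the lowest Egr1 and Egr3 of the 8 libraries.

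Genes with the most similar pattern were looked for among 7062 tested genes with a mean of at least 5 FPKM, by Pearson's r of log2 CPM over the 8 libraries, which share the same scaling and depth. For Egr1 these were Zfp335 (r = 0.96), Polr1a (0.948) and Inppl1 (0.946). For Ier3 they included Ndrg4 (0.979) and Tmem127 (0.949), and for Klf2 they were Lypla2 (0.933), Pold1 (0.924) and Map3k11 (0.904). None of the genes named here passed the test between surfaces, and such values describe the best matches out of 7062.

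Lists of related genes were read in the same fit, beside the 3.75% of all genes called. Among EGR partners and paralogs, 0 of 2 tested genes were called by edgeR, DESeq2 or limma, 1 was at an unadjusted p under 0.05, and the median log2 fold change was 0.11. Nab1, a corepressor that binds EGR proteins, averaged 84.0 ± 5.76 CPM on structured and 81.4 ± 2.79 CPM on smooth PEEK (SD, n = 4 each), with an adjusted p of 0.732. Among the other KLF genes, 0 of 11 tested were called by edgeR or limma voom, and 0 of the 7 with an adjusted p by DESeq2. In edgeR 7 of the 11 were below 0, 1 was at an unadjusted p under 0.05 and the median was -0.11. Klf7 was the most abundant of them, at 38.3 ± 1.71 CPM on structured and 41.4 ± 2.25 CPM on smooth PEEK (SD, n = 4 each), with an adjusted p of 0.295.

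Among the NR4A, IER and BTG/TOB paralogs, 1 of 6 tested genes was lower and 0 were higher by edgeR. DESeq2 gave 4 of the 6 an adjusted p, also with 1 lower and 0 higher, and limma voom called 0. In edgeR 2 were at an unadjusted p under 0.05, with a median log2 fold change of 0.03. The one that fell was Tob2, an antiproliferative protein of the family of Btg2, with 41.6 ± 1.75 CPM on structured and 49.5 ± 3.95 CPM on smooth PEEK (SD, n = 4 each), a log2 fold change of -0.25 ± 0.062 (SE) and an adjusted p of 0.049. Its adjusted p ranged from 0.00438 to 0.152 over 22 alternatives, and the call held in 4 of them. Among the single libraries, it held only without smooth 2. Among 12 genes listed for the CCR4-NOT deadenylase, the complex that BTG and TOB proteins recruit, 1 was lower and 0 higher by edgeR. By DESeq2 3 were lower and 2 higher. In edgeR 5 were at an unadjusted p under 0.05, with a median log2 fold change of -0.02. Cnot4, a ubiquitin ligase on that list, averaged 37.6 ± 1.202 CPM on structured and 46.3 ± 2.80 CPM on smooth PEEK (SD, n = 4 each). It was lower on structured PEEK with an edgeR adjusted p of 0.0161. The Cnot4 call was lost without structured 2, without structured 4, and on unfiltered log2(FPKM + 0.5), with adjusted p-values of 7.04e-05 to 0.0614 over 22 alternatives.

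Among the 27 genes of ERK, SRF and MEF2 input, 4 were lower and 0 higher on structured PEEK by edgeR (5 and 1 by DESeq2), 9 were at an unadjusted p under 0.05, 17 were below 0, and the median log2 fold change was -0.06. Mrtfa, the actin-regulated coactivator of SRF, fell to 63.3 ± 2.82 CPM on structured PEEK, against 78.4 ± 2.79 CPM on smooth PEEK (SD, n = 4 each), a log2 fold change of -0.31 ± 0.046 (SE) with an adjusted p of 0.0098. The MEF2 factor Mef2d fell to 159 ± 7.56 CPM on structured PEEK, against 182 ± 3.04 CPM on smooth PEEK, with an adjusted p of 0.0271, and Mef2a fell to 148 ± 6.60 CPM on structured PEEK, against 170 ± 5.66 CPM on smooth PEEK, with an adjusted p of 0.0285. Rps6ka1, a kinase activated by ERK, fell to 119 ± 6.31 CPM on structured PEEK, against 134 ± 1.52 CPM on smooth PEEK, with an adjusted p of 0.0442. Srf itself had a log2 fold change of 0.06 with an adjusted p of 0.653, and the kinase Mapk3 had -0.04 without passing. Both were named after their values were seen. The count of 4 lower genes was 1 without smooth 3, smooth 4, structured 2 or structured 4, and 2 without smooth 2 or structured 1. It was 0 without structured 4 and smooth 1 together, where the log2 fold changes were -0.30 for Mrtfa, -0.21 for Mef2a, -0.16 for Rps6ka1 and -0.15 for Mef2d, and 0 once trends with GC content and gene length were removed. Mrtfa kept its call without each single library, and lost it without structured 4 and smooth 1 together and in 2 of the other alternatives, with adjusted p-values of 5.13e-07 to 0.0714 over 22. Mef2d lost its call without smooth 2, 3 or 4 or structured 2 or 4, and Mef2a without these or structured 1. Rps6ka1 lost its call without every single library other than structured 3.

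Among 46 other immediate early genes, 5 were lower and 1 was higher on structured PEEK by edgeR, 18 were at an unadjusted p under 0.05, 33 were below 0 and the median log2 fold change was -0.06. Jun, an AP-1 subunit, fell to 80.6 ± 3.10 CPM on structured PEEK, against 100 ± 4.27 CPM on smooth PEEK (SD, n = 4 each), a log2 fold change of -0.31 ± 0.044 (SE) with an adjusted p of 0.00732, and it passed in all 22 alternatives. Bhlhe40, a repressor tied to the clock, fell to 11.7 ± 1.76 CPM on structured PEEK, against 18.6 ± 2.35 CPM on smooth PEEK, with an adjusted p of 0.0166, and passed in 18 of 22, though not without smooth 3 or structured 4. Plk2, a polo-like kinase, fell to 68.8 ± 6.94 CPM on structured PEEK, against 86.4 ± 2.45 CPM on smooth PEEK, with an adjusted p of 0.0234. Zfp36, which destabilises AU-rich mRNAs, fell to 77.7 ± 3.37 CPM on structured PEEK, against 94.3 ± 8.20 CPM on smooth PEEK, with an adjusted p of 0.0329. Plk2 lost its call without smooth 2, 3 or 4 or structured 4, and Zfp36 without any single library other than smooth 4 and structured 3. Atf3, a stress-induced repressor, at a log2 fold change of -0.54, and Id2, an inhibitor of bHLH factors, at 0.29, completed the 6, with adjusted p-values of 0.0393 and 0.05. Both were named after their values were seen, and their calls held in 9 and 5 of 22 alternatives. Among single libraries, the call of Atf3 held without smooth 1 or structured 1, and that of Id2 without smooth 1 or structured 3. Fos, Junb and Dusp1, also named with values known, had edgeR log2 fold changes of -0.07, 0.01 and 0.40 and did not pass. The count of 5 lower genes was 1 without smooth 3 or structured 4, 2 without smooth 2, and 3 without smooth 4 or structured 2. It was 2 without structured 4 and smooth 1 together.

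**Figure D4:**
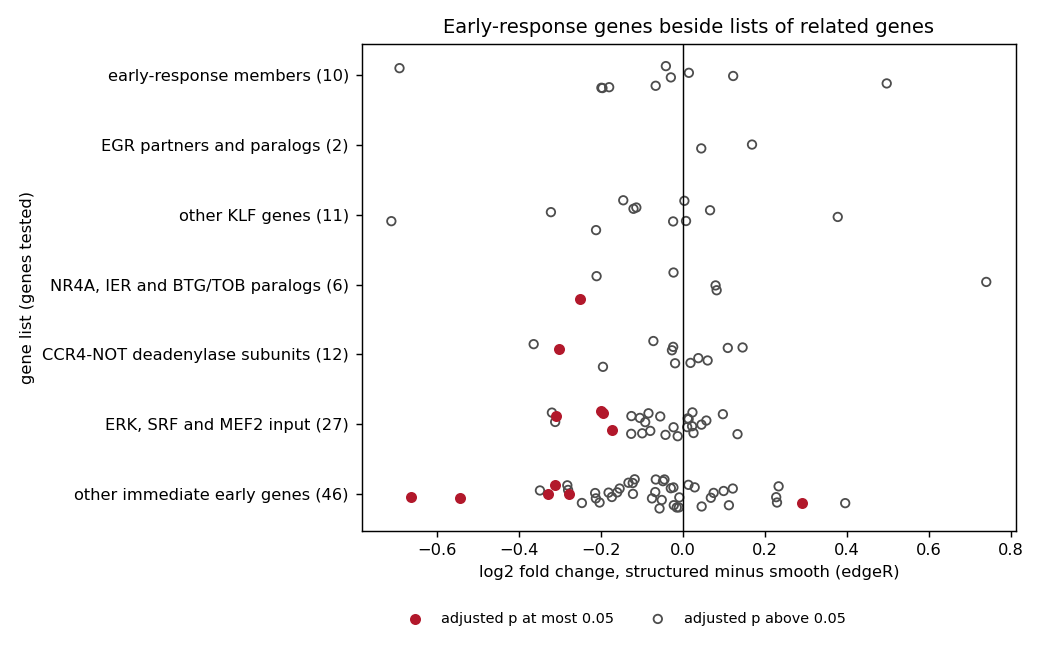
Log2 fold change, structured minus smooth PEEK (edgeR), of the early-response members and of 6 lists of related genes, 1 point per tested gene, filled where the adjusted p was at most 0.05. The row of 10 members holds no filled point, while the lists hold 1, 1, 4 and 6 filled points in the paralogs, deadenylase, input and other immediate early rows.

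The plot of lists places the members beside their relatives. The 12 listed genes that passed had log2 fold changes from -0.66 to 0.29. The 95% intervals of 7 members held the log2 fold change of Jun, -0.31, and those of the other 3, Egr2, Ier2 and Nr4a1, did not reach it. Whether a member and a listed gene differed in response was not tested.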

How the data were processed

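Polyadenylated RNA was sequenced as paired reads of 150 bases from strand-marked libraries with molecular identifiers, per the labels' protocols. The submitters' processing notes name cutadapt 1.9 and HISAT2 2.2.1. Which counter, strand setting, genome build and annotation were used is not given in the sources used here.

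In the authors' gene table each library has a count column and an FPKM column. The deposited counts were whole but in steps of about 4 (8018 values equal 4, 3344 equal 3 and 2180 equal 5), so they are treated here as estimated counts, with about 4 units per fragment. Totals ranged from 64479829 to 73098735 units per library. The authors' FPKM values were used for levels between genes.

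Counts were tested with edgeR 4.0.16 (R 4.3.3; filterByExpr with a minimum count of 10, TMM, quasi-likelihood test, group only, two-sided) on all 8 libraries, and p-values were adjusted by Benjamini-Hochberg over 16006 genes, with calls at 0.05 or below; 10842 genes were not tested. CPM is the count per 1000000 of the TMM-scaled total. DESeq2 1.42.0 and limma 3.58.1 served as alternatives, and tables and figures were made with Python 3.11.15 and matplotlib 3.10.9. In the alternatives on log2(FPKM + 0.5), fold changes of low genes are understated. The script was tested on simulated data.

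Members and lists were chosen with earlier results of these data known. From each list the text names up to 4 called genes with the smallest p or, where none was called, the most abundant one, and all 10 members. Some results are not reported here. The table's coordinates were compared with GENCODE M21 (GRCm38), where 9 of 10 members had identical coordinates (Ier2 did not), and 0 overlapped another annotated gene.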

Additional observations from a re-analysis of the deposited data

Results flagged for a closer look

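Klf4 stood at 1.76 CPM in structured 3, against 1.18 to 1.24 CPM in the other 3 structured libraries, a gap that Dixon's test at 95% marks as an isolated value. It was 1 of 20 groups examined (10 genes in each of 2 surfaces), and chance marks about 1 in 20. Counting error alone gives a CV of 18.1% for Klf4, wider than the spread among those other 3 libraries.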

How the results depend on the processing

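No member was called in any of 22 alternatives, of which 21 were planned (Egr2, Egr3 and Klf4 had an adjusted p in 18 of them). The other one, without structured 4 and smooth 1 (highest in hepatocyte transcripts), was chosen after seeing the data. Smooth 1 was also the highest library in skeletal muscle transcripts, so this fit cannot separate the 2 kinds of transcript. In this fit the surfaces were fully separated in hepatocyte transcripts, with structured 1 to 3 above smooth 2 to 4. Among all genes, 601 were called; there were 189 with no filter on low counts, 1433 with DESeq2, 138, 114 and 148 by limma on log2(FPKM + 0.5), log2(FPKM + 0.1) and log2(FPKM + 1), 54 on log2(FPKM + 0.5) with no filter, 154 with GC and length trends removed, 137 without structured 4 and smooth 1, and 88 to 597 leaving out 1 library. The 4 lower genes of ERK, SRF and MEF2 input were 1 with no filter, 1, 1 and 1 on the 3 filtered FPKM scales, 0 on unfiltered FPKM, 0 with GC and length trends removed, 0 without structured 4 and smooth 1, and 1 to 4 leaving out 1 library. The 5 lower other immediate early genes were 1 with no filter, 2, 2 and 2 on the filtered FPKM scales, 1 on unfiltered FPKM, 3 with trends removed, 2 without structured 4 and smooth 1, and 1 to 4 leaving out 1 library. Signs turned for Egr3 (0.046), Klf2 (0.037) and Nab1 (-0.019) without structured 4 and smooth 1, and, leaving out 1 library, log2 fold changes spanned -0.11 to 0.11 for Egr3, -0.034 to 0.062 for Ier2, -0.14 to 0.059 for Btg2, 0.072 to 0.19 for Nr4a1 and -0.16 to 0.052 for Klf2. The cause was not tested. The labels share replicate numbers, but same-numbered libraries did not deviate together (correlations of -0.159 to 0.0761) and none correlated best with its own number; with the number as a replicate block, 0 members and 499 genes were called, with a lowest member adjusted p of 0.0676. Depth limits Egr2, Egr3 and Klf4 most.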
